A study of Homo sapiens with 18 samples.

Results

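The genes described here are 10 members of the YAP and TEAD programme, chosen by name: the co-activators YAP1 and WWTR1 (the gene of TAZ), the transcription factor TEAD1, the regulators LATS2, AJUBA and AMOTL2, and the target genes CCN1, CCN2, ANKRD1 and DLC1. They are 10 of the 20046 genes that the array platform names, and 15 probes carry their symbols, with CCN1 and CCN2 matched through their older names CYR61 and CTGF where the platform uses those. The name "target genes" covers only part of the list, since it also holds the upstream regulators. Total RNA of 6 pancreatic cancer cell lines was hybridised to Illumina HT-12 bead arrays, 3 arrays a line and 18 in all. The resistant group was MiaPaCa2, Panc1 and SU8686, which the labels call dasatinib-resistant (dasatinib blocks SRC-family and ABL kinases), and the sensitive group was Panc0403, Panc0504 and Panc1005. The labels name no drug exposure, so the groups differ in a property of the line and not in a treatment. Each response is modelled by 3 lines, so the line was the replicate for the response. The 3 arrays of a line are labelled as biological replicates.

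The Hippo pathway is a kinase cascade in which LATS kinases phosphorylate YAP and TAZ and hold them in the cytoplasm. When the cascade is quiet, as on stiff matrix or at low cell density, YAP and TAZ enter the nucleus and bind TEAD proteins, which recognise the DNA motif GGAATG and raise transcription of genes such as CCN1, CCN2 and ANKRD1. Activity of YAP and TAZ is set largely by phosphorylation and localisation, which a transcript array does not measure.

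The upstream sequences of 3 members that had lower signal in MiaPaCa2 and Panc1 than in Panc0403 and Panc0504 on replicates 1 and 3 are printed to show how many copies of the TEAD motif stand just before their start. DLC1, also lower there, was left out of the search. Each is the 250 bases before the RefSeq start site on the gene's own strand (build GRCh38.p14), written 5′ to 3′ in lower case, with each GGAATG in capitals. CCN2 lies at chr6:131951373-131951622 on the minus strand, ANKRD1 at chr10:90921088-90921337 on the minus strand, and AJUBA at chr14:22976843-22977092 on the minus strand.
CCN2: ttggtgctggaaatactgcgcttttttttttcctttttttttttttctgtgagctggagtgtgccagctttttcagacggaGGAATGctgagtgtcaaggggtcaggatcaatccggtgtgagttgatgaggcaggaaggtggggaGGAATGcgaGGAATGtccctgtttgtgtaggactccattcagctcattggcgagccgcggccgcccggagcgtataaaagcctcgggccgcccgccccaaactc
ANKRD1: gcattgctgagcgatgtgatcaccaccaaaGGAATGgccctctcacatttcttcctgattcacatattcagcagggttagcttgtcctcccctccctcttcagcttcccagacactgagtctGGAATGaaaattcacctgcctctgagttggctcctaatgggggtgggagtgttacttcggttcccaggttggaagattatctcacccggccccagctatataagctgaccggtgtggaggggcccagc
AJUBA: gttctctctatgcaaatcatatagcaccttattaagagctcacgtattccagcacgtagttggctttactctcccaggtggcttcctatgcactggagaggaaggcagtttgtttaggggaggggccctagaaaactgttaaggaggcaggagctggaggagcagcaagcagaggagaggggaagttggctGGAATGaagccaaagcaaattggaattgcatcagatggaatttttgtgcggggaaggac
The CCN2 window held 3 copies, beginning 169, 104 and 95 bases before the start, the last of them separated from the one before by a short spacer. The ANKRD1 window held 2 copies, 220 and 128 bases before the start. The AJUBA window held 1 copy, 59 bases before the start, and the window of its other annotated start held none. Across 35116 RefSeq windows of the same 250 bases, 11.9% held at least 1 copy on either strand, 0.94% at least 2 and 0.0826% at least 3. Windows of 7 members were searched, and those of CCN1, TEAD1 and DLC1 were not. Of the others searched, YAP1 held 1 copy 162 bases before its start. AMOTL2 held 1 copy 69 bases before the first of its starts in the table and none at the other, and WWTR1 and LATS2 held none. The AP-1 motif TGACTCA, searched on both strands, was in none of the windows searched for members and in 4.2% of all windows. A match describes the letters of the window and is no evidence of binding.

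Levels are log2 intensities after background correction and quantile normalization, and a probe was called detected on an array where its detection p was under 0.01. Between 31% and 35% of probes were detected on each array, and the median raw intensity ran from 110.4 to 135.2. The lines were split over 3 slides: slide 1 held Panc0403 and Panc0504, slide 2 held SU8686 and Panc1005, and slide 3 held MiaPaCa2 and Panc1, so the response and the slide cannot be told apart outside slide 2. Replicate 2 stood apart on every slide. Its correlation with replicates 1 and 3 of the same labelled line was 0.851 to 0.897 over all genes tested, while replicates 1 and 3 correlated at 0.994 to 0.996. The array nearest to each replicate 2 was replicate 2 of the other line on that slide, at 0.99 to 0.991 on slides 1 and 3 and at 0.915 on slide 2. Defining epithelial markers went the same way. On replicate 2 EPCAM read 9.13 in MiaPaCa2 and 9.10 in Panc1, against means of 5.12 and 5.16 on replicates 1 and 3 of those lines, where EPCAM, CDH1 and KRT7 were not detected. N-cadherin, encoded by CDH2, was detected on all 6 arrays of replicate 2 and on none of the 12 others. Whether the arrays labelled replicate 2 are of the labelled lines is in doubt, and every mean, SE and call over all arrays depends on it. Levels are therefore given by replicate, and the response difference of each member for all arrays, for replicates 1 and 3, and for replicate 2.

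Of the 10 members, 9 had a probe detected on at least 3 of the 18 arrays and were tested. YAP1, WWTR1, CCN1, AJUBA and LATS2 were detected on all 18 arrays, CCN2 on 16, ANKRD1 on 12, DLC1 on 8 and TEAD1 on 3. AMOTL2, an angiomotin-like protein that binds YAP and is itself a target, was detected on 1 array, replicate 1 of Panc1 at 6.50, and its other readings lay between 5.13 and 5.83, at background. It was not tested. Levels are per unit of total RNA, so fewer cells with a transcript and less of it per cell cannot be told apart.

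**Figure D1:**
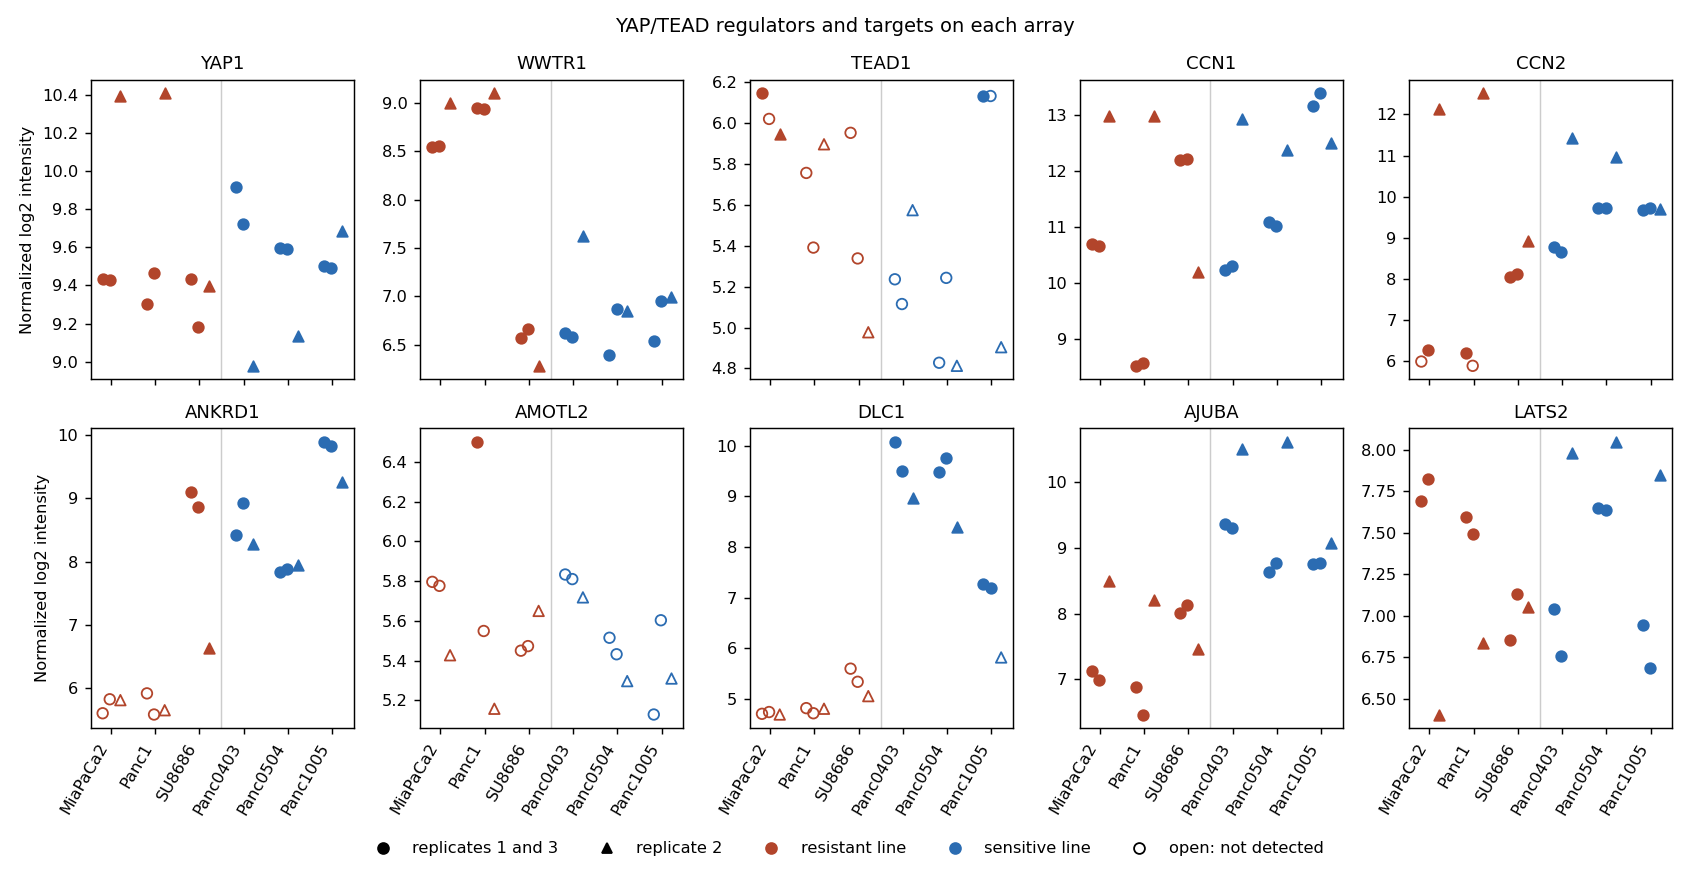
Normalized log2 intensity (vertical axis, own scale per gene) of each member on each of the 18 arrays, by line on the horizontal axis, with resistant lines in red, sensitive lines in blue, circles for replicates 1 and 3, triangles for replicate 2 and open symbols where the probe was not detected. DLC1 is open on all 9 resistant arrays, and the triangles of CCN2 in MiaPaCa2 and Panc1 lie at 12.14 and 12.51, far above the circles of the same lines.

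The co-activators behaved differently from each other. YAP1 was almost level across the lines on replicates 1 and 3: the resistant arrays ran from 9.18 through a median of 9.43 to 9.46, and the sensitive arrays from 9.49 through 9.59 to 9.92. Those ranges do not overlap, but the gap between them is small. No neighbouring lines in the order Panc0403, Panc0504, Panc1005, MiaPaCa2, Panc1, SU8686 passed the test (adjusted p from 0.123 to 0.784, limma). Some lines further apart did, at differences too small for a call. SU8686, Panc1, MiaPaCa2 and Panc1005 differed from Panc0403 by -0.511, -0.435, -0.385 and -0.322 (limma adjusted p = 0.00218, 0.00448, 0.00883 and 0.0248). SU8686 differed from Panc0504 by -0.284 (limma adjusted p = 0.0391). On replicate 2 YAP1 read 10.39 in MiaPaCa2, 10.41 in Panc1 and 9.40 in SU8686, against 8.98 in Panc0403, 9.14 in Panc0504 and 9.69 in Panc1005, so MiaPaCa2 and Panc1 were highest there and the responses overlapped. Over all arrays YAP1 differed between the responses by 0.09 ± 0.20 on the log2 scale (SE, 3 lines each, limma adjusted p = 0.816), by -0.26 on replicates 1 and 3 and by 0.80 on replicate 2, and none of its 15 pairs of lines was called, with or without replicate 2.

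WWTR1 was high in MiaPaCa2 and Panc1 and low in all other lines. MiaPaCa2 read 8.54 and 8.55 on replicates 1 and 3 and 9.0 on replicate 2, and Panc1 read 8.95, 8.94 and 9.10. The resistant line SU8686 read 6.57, 6.66 and 6.28, in or just below the sensitive range, which ran from 6.40 through a median of 6.85 to 7.63 over 9 arrays. Each of the 8 pairs that set MiaPaCa2 or Panc1 against another line was called with all arrays and also without replicate 2, at a log2 difference of at least 1 and an adjusted p under 0.05 (limma, arrays as replicates), and no other pair was called. Without replicate 1 there were 6 such pairs, and without replicate 3 there were 5. In the order of the lines on replicates 1 and 3, Panc1 and MiaPaCa2 did not pass the test against each other (0.40 ± 0.16, adjusted p = 0.0965), the step from MiaPaCa2 down to Panc1005 did (1.80 ± 0.16, adjusted p = 4.56e-06), and the 4 lines below were not separated. SU8686 sat with the sensitive lines. The response difference of WWTR1, 1.24 ± 0.65, did not pass (limma adjusted p = 0.328), and it was 1.38 on replicates 1 and 3 and 0.97 on replicate 2. ZNF385D, with an r of 0.977 over the 18 arrays, and PDE10A, with 0.964, had the patterns most like that of WWTR1. These correlations, here and below, describe arrays that share lines, slides and the offset of replicate 2.

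TEAD1 was near background throughout. Its better probe was detected on replicate 1 or 3 of MiaPaCa2 once, on its replicate 2, and on 1 array of Panc1005, with all readings between 4.81 and 6.14, and the other probe was detected on none. Differences of TEAD1 are therefore differences between values near the floor, and its response difference was 0.38 ± 0.28 over all arrays (adjusted p = 0.458, limma), 0.32 on replicates 1 and 3 and 0.51 on replicate 2. The pair of MiaPaCa2 and Panc0504 was called with all arrays (1.08 ± 0.32, adjusted p = 0.0204, limma), and was not called without replicate 1 or without replicate 3. Its 2 line means, 6.04 and 4.96, gave no fold, since the lowest detected signal on the Panc0504 arrays averaged 6.11.

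LATS2, the kinase that inhibits YAP, changed order with the replicate. On replicates 1 and 3 the resistant arrays ran from 6.85 through 7.54 to 7.82 and the sensitive arrays from 6.69 through 6.99 to 7.65, and the ranges overlapped. On replicate 2 it read 6.41 in MiaPaCa2, 6.84 in Panc1 and 7.05 in SU8686, against 7.98 in Panc0403, 8.05 in Panc0504 and 7.85 in Panc1005, so that all resistant values lay below all sensitive ones. No pair of lines was called in either fit. The response difference was -0.19 ± 0.24 over all arrays (adjusted p = 0.664, limma), 0.31 on replicates 1 and 3 and -1.19 on replicate 2. ADPRM (r = 0.88) and VIPAS39 (r = 0.868) were most like LATS2 over the 18 arrays, MMGT1 (r = 0.914) and BRD9 (r = 0.904) most like YAP1, and NDUFAF8 (r = 0.907) and NUP153 (r = 0.896) most like TEAD1.

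AJUBA, a LIM-domain protein that restrains LATS kinases and is also listed among YAP targets, read lower in the resistant lines on every kind of array. Replicates 1 and 3 ran from 6.47 through 7.06 to 8.13 in resistant lines, against 8.64, 8.76 and 9.36 in sensitive lines. On replicate 2 the resistant values were 8.49 in MiaPaCa2, 8.20 in Panc1 and 7.47 in SU8686, and the sensitive values were 10.49 in Panc0403, 10.60 in Panc0504 and 9.07 in Panc1005. On the probe tested, no resistant array reached a sensitive array, 8.49 being the highest of the first and 8.64 the lowest of the second. The difference was -1.78 ± 0.30 over all arrays (means 7.53 ± 0.34 and 9.30 ± 0.43, SD over 3 lines each), with an unadjusted p of 0.000856 and an adjusted p of 0.237 (limma), and it was -1.66 on replicates 1 and 3 and -2.003 on replicate 2. Its other probes, detected on 8 and 4 arrays, gave -0.791 and -1.099. On the first of these the responses overlapped near the floor: Panc1 read 6.31 on replicate 2, above Panc0504 at 5.82 on replicate 3, not detected. The called pairs were the 4 of MiaPaCa2 or Panc1 against Panc0403 or Panc0504 with all arrays, and 9 pairs without replicate 2, while without replicate 1 or without replicate 3 there were 0. SMIM7 (r = 0.939) and the poliovirus receptor PVR (r = 0.936) were most like it over the 18 arrays.

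CCN2 and CCN1 encode secreted matricellular proteins of the CCN family and are among the most used readouts of YAP and TAZ activity. CCN2 was lowest in MiaPaCa2, at 6.0 and 6.27 on replicates 1 and 3, and in Panc1, at 6.20 and 5.90, where it was detected on 1 of the 2 arrays of each line. SU8686 read 8.05 and 8.12. Panc0403 read 8.78 and 8.66, Panc0504 read 9.73 on both, and Panc1005 read 9.69 and 9.72, so the sensitive lines lay above all resistant ones. On replicates 1 and 3 Panc0504 and Panc1005 were not separated (0.03 ± 0.12, adjusted p = 0.845), nor were MiaPaCa2 and Panc1 (0.09 ± 0.12, adjusted p = 0.659), and the 3 other steps of the order passed, with adjusted p of at most 0.00117 (limma).

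Replicate 2 gave another picture of CCN2. It read 12.14 in MiaPaCa2 and 12.51 in Panc1, the highest values of the gene on any array, 8.93 in SU8686, and 11.42, 10.97 and 9.70 in Panc0403, Panc0504 and Panc1005. Relative to replicates 1 and 3 of the same labelled line, that is 6.0 higher in MiaPaCa2, 6.46 in Panc1, 2.70 in Panc0403, 1.24 in Panc0504, 0.85 in SU8686 and 0.00 in Panc1005. The response difference was accordingly 0.50 on replicate 2 and -2.63 on replicates 1 and 3, in opposite directions. The mean over all arrays, 8.23 ± 0.12 in resistant and 9.82 ± 0.28 in sensitive lines (SD, 3 lines each), differed by -1.59 ± 0.22, with an unadjusted p of 0.000253 and an adjusted p of 0.237 (limma), and its small spread between lines joins replicate 2 with replicates 1 and 3, whose mean lay up to 6.46 from it. The other CCN2 probe, detected on 15 arrays, gave -1.28 over all arrays and -2.01 on replicates 1 and 3. Of its 15 pairs of lines, none was called with all arrays and 11 without replicate 2. TPM1, a tropomyosin of the actin cytoskeleton, had the pattern most like CCN2 (r = 0.964), followed by SMUG1 (r = 0.954).

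CCN1 gave high signal in every line, and its order did not follow the response. Panc1005 was highest on replicates 1 and 3 at 13.16 and 13.39, then came SU8686 at 12.21 and 12.22, Panc0504 at 11.09 and 11.02, MiaPaCa2 at 10.70 and 10.65, Panc0403 at 10.24 and 10.31, and Panc1 at 8.52 and 8.57. All 5 steps of that order passed the test (limma adjusted p of at most 0.00363), the smallest being 0.38 ± 0.09 between Panc0504 and MiaPaCa2. On replicate 2 MiaPaCa2 and Panc1 both read 12.98 and SU8686 read 10.20, against 12.93 in Panc0403, 12.37 in Panc0504 and 12.50 in Panc1005. Panc1, the lowest line on replicates 1 and 3, was thus at the top of replicate 2 with MiaPaCa2. In all, 12 pairs were called without replicate 2 and none with all arrays, and the response difference was -0.89 ± 0.62 (adjusted p = 0.442, limma), at -1.06 on replicates 1 and 3 and -0.55 on replicate 2. MYG1 (r = 0.893) and HSF2BP (r = 0.889) were most like it.

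ANKRD1 encodes an ankyrin-repeat protein and is a direct target of YAP and TEAD. It was not detected on any array of MiaPaCa2 or Panc1, replicate 2 included, where readings lay between 5.58 and 5.92. In SU8686 it read 9.09 and 8.87 on replicates 1 and 3 and 6.63 on replicate 2. Panc0403 read 8.42, 8.92 and 8.28, Panc0504 read 7.84, 7.88 and 7.95, and Panc1005 read 9.89, 9.82 and 9.26, with replicate 2 last. The sensitive arrays therefore all detected it, and the resistant lines were split: SU8686 lay among the sensitive lines on replicates 1 and 3 and below them on replicate 2. MiaPaCa2 and Panc1 had at least 4.50-fold lower ANKRD1 than Panc0403 and Panc0504 over all arrays, at least 4.59-fold on replicates 1 and 3 and at least 4.33-fold on replicate 2, the bound being set by the lowest detected signal on the dim arrays. Measured means were 5.73 in MiaPaCa2 and Panc1 and 8.21 in Panc0403 and Panc0504. With all arrays 9 pairs of lines were called: the 8 of MiaPaCa2 or Panc1 against the other lines, and Panc1005 over Panc0504 (1.77 ± 0.46, adjusted p = 0.0246, limma). The count was 11 without replicate 2, 3 without replicate 1 and 2 without replicate 3. The response difference of -2.14 ± 0.79 did not pass (adjusted p = 0.25), and it was -1.98 on replicates 1 and 3 and -2.46 on replicate 2. C16orf74 (r = 0.969) and JPH1 (r = 0.947) were most like it.

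DLC1, a GTPase-activating protein that has been described as a YAP target, was detected on 8 of 9 sensitive arrays and on 0 of 9 resistant arrays. Panc0403 read 10.07 and 9.51 on replicates 1 and 3 and 8.98 on replicate 2, Panc0504 read 9.48, 9.77 and 8.39, and Panc1005 read 7.27, 7.19 and 5.82, the last not detected. Resistant readings, all at background, lay between 4.70 and 5.60. DLC1 was at least 6.94-fold lower in resistant than in sensitive lines on replicates 1 and 3. It was at least 5.43-fold lower over all arrays and at least 3.31-fold on replicate 2, taking the undetected Panc1005 reading as measured. The measured line means were 4.94 ± 0.34 in resistant and 8.50 ± 1.51 in sensitive lines (SD, 3 lines each), and the test across 6 lines gave an unadjusted p of 0.00236 and an adjusted p of 0.237 (limma). Among the sensitive lines the levels were unequal: Panc0504 exceeded Panc1005 by 2.45 ± 0.40 over all arrays (adjusted p = 0.00167), while Panc0403 and Panc0504 were not separated. DLC1 had 10 called pairs with all arrays, 11 without replicate 2, 6 without replicate 1 and 5 without replicate 3. Its second probe was detected on no array. GPRC5A (r = 0.952) and BMP4 (r = 0.935) had the patterns most like that of DLC1.

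Across the responses, none of the 11600 genes tested passed an adjusted p of 0.05, a share called of 0%, so no member did. At an unadjusted p under 0.05 the members counted 4 of 9 (CCN2, ANKRD1, DLC1 and AJUBA, all lower in resistant lines), against 18.9% of all genes, of which the lower ones made 8.48% of all genes. Without replicate 2 it was 3 of 9 (CCN2, DLC1 and AJUBA, all lower), against 15.5%, with 7.56% lower. On replicate 2 alone it was 4 of 9 (ANKRD1, DLC1, AJUBA and LATS2, all lower), against 17.1%, with 7.2% lower, and 0.19% of genes but no member passed the adjusted threshold. By direction, 6 of the 9 members had a negative difference, with a median of -0.89, and 46.9% of all genes had one, with a median of 0.04. On replicates 1 and 3 the count was 6 of 9 with a median of -1.06 (47.1% of all genes), and on replicate 2 it was 5 of 9 with a median of -0.55 (47.3%). Line values of the responses did not overlap and were lower in resistant lines for 3 members with all arrays (CCN2, DLC1 and AJUBA; 9.71% of all genes), for 4 on replicates 1 and 3 (also YAP1; 8.02%) and for 4 on replicate 2 (ANKRD1, DLC1, AJUBA and LATS2; 9.6%). DLC1 and AJUBA were in all 3 sets.

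**Figure D2:**
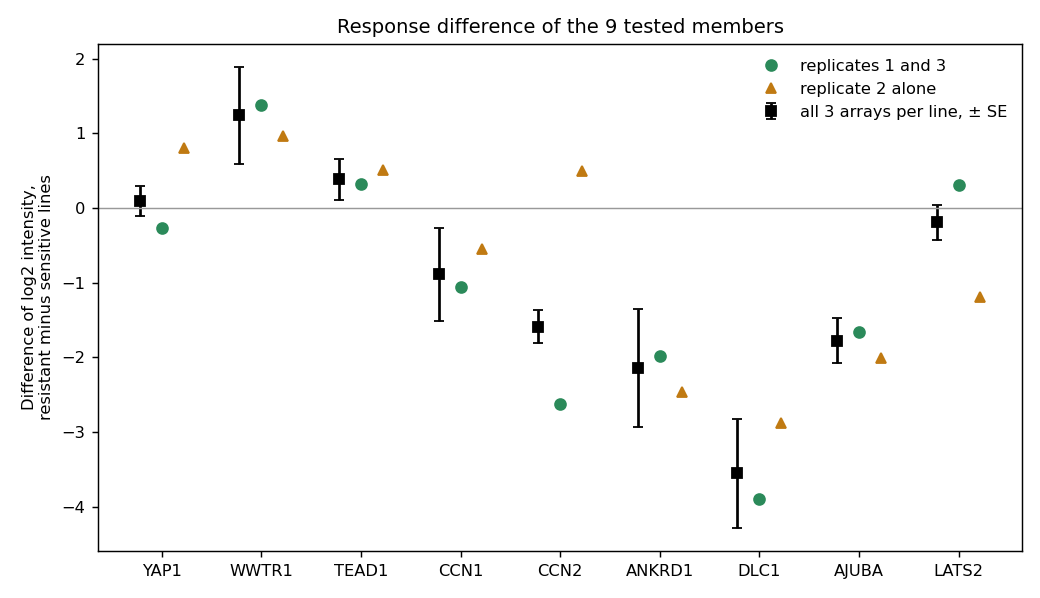
Difference of log2 intensity, resistant minus sensitive lines (vertical axis), of the 9 tested members (horizontal axis), for all 3 arrays per line with its SE (squares and bars), for replicates 1 and 3 (circles) and for replicate 2 alone (triangles). AJUBA, DLC1 and ANKRD1 lie below 0 on all 3 measures, while CCN2 is at -2.63 on replicates 1 and 3 and at 0.50 on replicate 2.

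Between individual lines the members were called in 32 of 135 combinations of gene and pair, or 23.7%, against 9.94% over all genes and pairs. Without replicate 2 it was 64 of 135, or 47.4%, against 24.8%. Without replicate 1 it was 15 of 135, against 1.35% over all genes and pairs, and without replicate 3 it was 12 of 135, against 1.31%. The calls gathered in WWTR1, ANKRD1 and DLC1 with all arrays, which had 8, 9 and 10 of them, and CCN1 and CCN2 had none until replicate 2 was left out. In all 4 pairs of a slide 3 line with a slide 1 line, 3 members were called lower on all arrays (ANKRD1, DLC1 and AJUBA; 6.28% of all genes) and 1 higher (WWTR1; 5.21%). On replicates 1 and 3 the counts were 4 lower, now with CCN2 (12.5% of all genes), and 1 higher (10.4%). In these pairs slide and response cannot be told apart.

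SU8686 and Panc1005 shared slide 2, so a resistant and a sensitive line were compared within a slide. Arrays were the replicates, and line and response cannot be told apart there. No member was called there with all arrays, where 0.491% of all genes were. On replicates 1 and 3, CCN1 (-1.06), CCN2 (-1.62) and DLC1 (-1.76) were called lower in SU8686, which is 3 of 9 members against 4.84% of genes. DLC1 there was at least 2.15-fold lower in SU8686, where it was not detected. WWTR1 differed there by -0.13 and LATS2 by 0.18, and neither was called. The sizes differed between slides for WWTR1, at 2.02 in MiaPaCa2 and Panc1 over Panc0403 and Panc0504 and -0.33 in SU8686 over Panc1005, a difference of 2.35 ± 0.33 (limma adjusted p = 0.000207). For DLC1 they were -4.62 and -1.43, a difference of -3.19 ± 0.49 (adjusted p = 0.000449). Since DLC1 was at background on all resistant arrays, both of its differences are set by the floor on that side, and the measured folds are bounds only: at least 9.99-fold lower in MiaPaCa2 and Panc1 than in Panc0403 and Panc0504, and at least 1.601-fold lower in SU8686 than in Panc1005. The last of these folds takes the undetected reading of Panc1005 on replicate 2 as measured, so it is not a strict bound. The 7 other members did not pass with all arrays, where 21.3% of all genes did. Without replicate 2, TEAD1, CCN2, ANKRD1 and AJUBA passed as well, among 72.9% of all genes. Leaving out replicate 3 gave an adjusted p of 0.0559 for WWTR1 and 0.0663 for DLC1, and leaving out replicate 1 gave 0.0647 for DLC1.

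**Figure D3:**
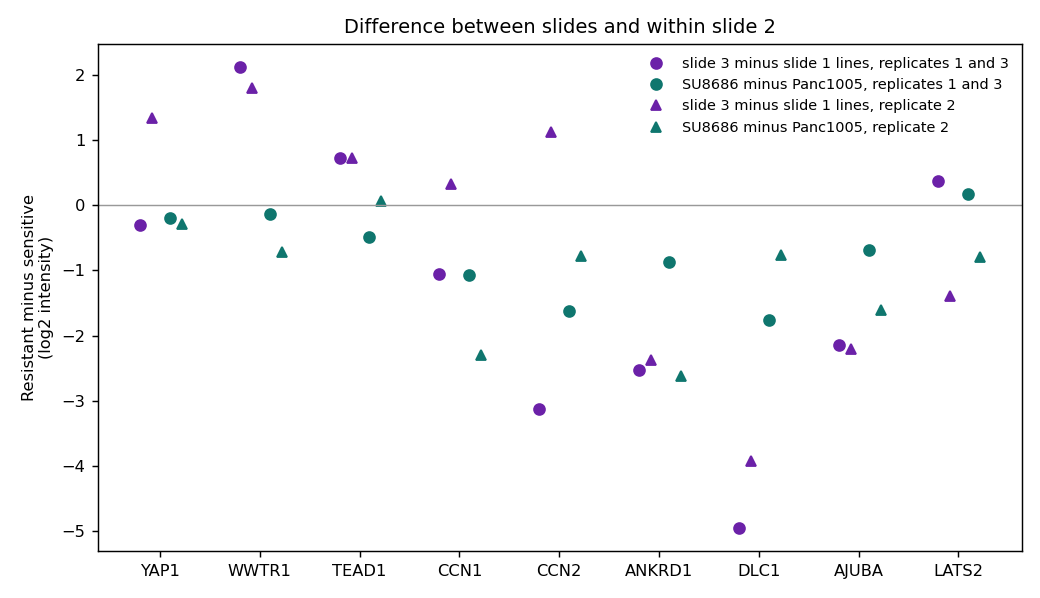
Resistant minus sensitive difference of log2 intensity (vertical axis) of each tested member, for the lines of slide 3 minus those of slide 1 (purple) and for SU8686 minus Panc1005 on slide 2 (green), on replicates 1 and 3 (circles) and replicate 2 (triangles). WWTR1 is at 2.13 and -0.13 on replicates 1 and 3, and DLC1 at -4.96 and -1.76.

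The offset of replicate 2 was not the same for all members. Relative to the mean of replicates 1 and 3 it was at least 1 on the log2 scale for 4 of 9 members in MiaPaCa2 (24.4% of all genes), 4 in Panc1 (25.1%), 2 in SU8686 (28%), 5 in Panc0403 (17.9%), 4 in Panc0504 (22.2%) and 3 in Panc1005 (28.1%). Replicates 1 and 3 of a line differed by that much for no member, and for 0.0259% of all genes in MiaPaCa2, 0.207% in Panc1, 0.216% in SU8686, 0.138% in Panc0403, 0.0517% in Panc0504 and 0.388% in Panc1005. CCN2 was raised by at least 1 in 4 lines and lowered in none, AJUBA was raised in 4, and CCN1 was raised in 4 and lowered by 2.02 in SU8686. ANKRD1 was lowered by 2.35 in SU8686, and its other shifts stayed below 1. Of all genes, 0.681% were off by at least 1 in the same direction in all 6 lines, and no member was among them.

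**Figure D4:**
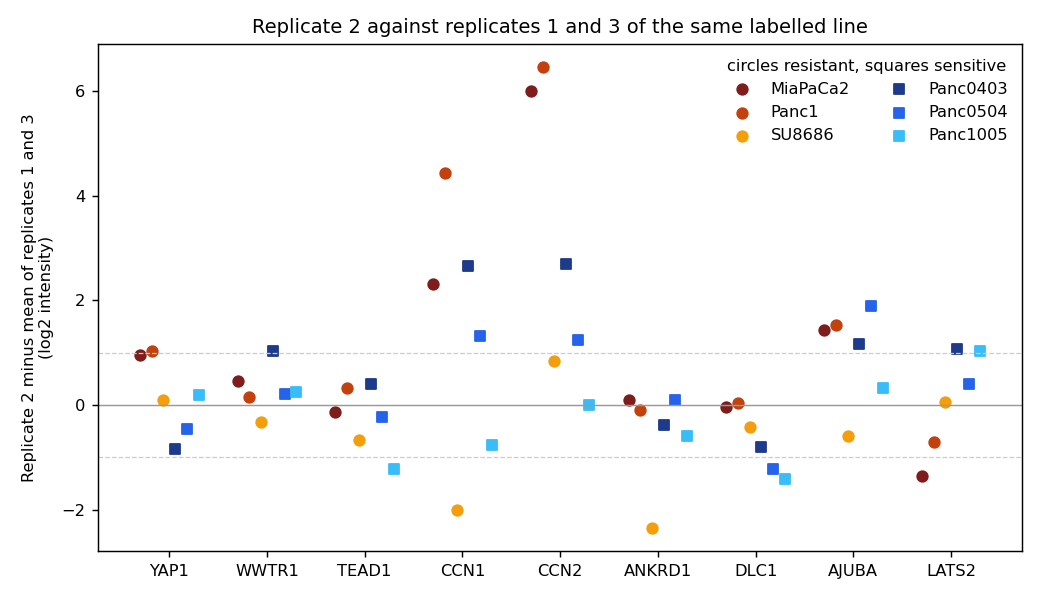
Replicate 2 minus the mean of replicates 1 and 3 of the same labelled line, in log2 intensity (vertical axis), for each tested member and line, with resistant lines as circles, sensitive lines as squares and dashed lines at 1 and -1. CCN2 stands at 6.46 in Panc1 and 6.0 in MiaPaCa2, and WWTR1 lies between -0.33 and 1.02.

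The rest of the pathway was read from lists chosen with earlier results of these data known. No gene of any list passed the response test. Of 18 Hippo kinases and scaffolds, 15 were tested (not LATS1, AMOTL1 and LIMD1), 9 had a negative difference (46.9% of all genes) and the median was -0.11. Replicates 1 and 3 gave 11 of 15 (47.1%) with a median of -0.45, and replicate 2 gave 6 of 15 (47.3%) with a median of 0.14, so the median turned sign with the replicate. The largest were WWC1, the scaffold KIBRA, at -3.42 ± 1.10 (adjusted p = 0.242) and FRMD6, a FERM-domain scaffold, at -1.54 ± 0.41 (adjusted p = 0.239, limma). WWC1 read 7.80 and 7.91 on replicate 2 of MiaPaCa2 and Panc1 and averaged 6.11 and 6.13 on their replicates 1 and 3, while SU8686 averaged 10.92 and the sensitive lines 11.27 to 11.30. It was thus low in MiaPaCa2 and Panc1 but not in SU8686. Chosen after its values were seen, AMOT, an angiomotin that binds YAP, read 9.53 and 9.89 on replicate 2 of MiaPaCa2 and Panc1, against means of 5.21 and 5.28 on replicates 1 and 3.

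Among the TEAD family and its cofactors, 4 of 6 were tested (not TEAD3 and VGLL3). TEAD2 differed by 3.02 ± 0.75 (adjusted p = 0.239, limma), averaging 10.77 in MiaPaCa2, 10.70 in Panc1 and 8.91 in SU8686 on replicates 1 and 3, against 6.64 in Panc0403, 5.76 in Panc0504 and 8.86 in Panc1005, and its difference was 3.04 on replicates 1 and 3 and 2.98 on replicate 2. VGLL1, a vestigial-like protein that binds TEADs, differed by -2.42 ± 0.98 (adjusted p = 0.26, limma) and averaged 6.03 in MiaPaCa2 and 5.94 in Panc1, against 9.87 in SU8686 and 9.17 to 10.13 in sensitive lines on replicates 1 and 3. It was detected on 3 of the 9 resistant arrays, so the MiaPaCa2 and Panc1 values are at background, and its difference was -2.34 on replicates 1 and 3 and -2.60 on replicate 2. SU8686 differed from Panc1005 by 0.05 in TEAD2 and by -0.27 in VGLL1 on replicates 1 and 3. TEAD2 was thus high and VGLL1 low in MiaPaCa2 and Panc1, and neither passed the response test.

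Of 22 other target genes of YAP, 19 were tested, of which 12 had a negative difference (46.9% of all genes), with a median of -0.58. For replicates 1 and 3 it was 12 (47.1%) with a median of -0.87, and on replicate 2 it was 13 (47.3%) with a median of -0.64. F3, tissue factor, differed by -4.29 ± 1.20 (adjusted p = 0.239, limma), and THBS1, thrombospondin 1, by -4.18 ± 1.56 (adjusted p = 0.251). On replicates 1 and 3, F3 averaged 5.42 in MiaPaCa2, 5.60 in Panc1 and 11.02 in SU8686, against 10.27 in Panc0403, 10.68 in Panc0504 and 12 in Panc1005. THBS1 averaged 4.62, 4.72 and 11.02 in the same resistant lines, against 11.09, 10.33 and 11.54 in the sensitive lines. On these arrays both were low in MiaPaCa2 and Panc1 and high in SU8686, as ANKRD1 was. On replicate 2 F3 read 7.75 in SU8686, against 11.01 to 12.46 in the sensitive lines, and THBS1 read 10.71 there, against 11.11 to 13.33. F3 was detected on 3 and THBS1 on 4 of the 9 resistant arrays, so their differences rest on values at background. Between slide 3 and slide 1 on replicates 1 and 3, 9 of the 19 were called lower in all 4 pairs (12.5% of all genes) and 1 higher (10.4%), which was NT5E. With all arrays 4 were lower (6.28%) and 0 were higher (5.21%), and the response difference of NT5E was 2.35 on replicates 1 and 3 and -1.03 on replicate 2. Of the Hippo list 5 were lower (SAV1, WWC1, FRMD6, MAP4K4 and AMOT) and 1 was higher (WTIP), named here after their values were seen, as NT5E was, and with all arrays 2 were lower and 1 was higher.

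**Figure D5:**
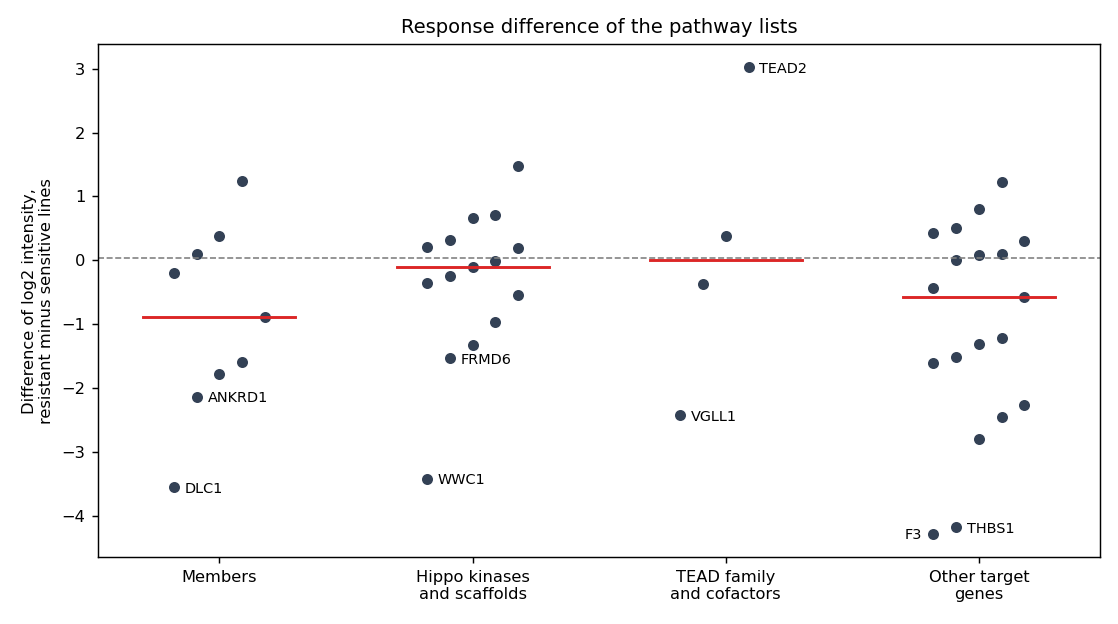
Difference of log2 intensity, resistant minus sensitive lines over all arrays (vertical axis), of each tested gene in the members and the 3 pathway lists (horizontal axis), with red bars at each list's median, a dashed line at the median of all genes, 0.04, and the 2 largest of each list labelled. The medians are -0.89 for the members, -0.11 for the Hippo kinases and scaffolds, 0.01 for the TEAD family and -0.58 for the other target genes.

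Markers of cell state also differed between the lines. The 6 epithelial markers, all detected, summed to 5050 to 68559 intensity units on replicates 1 and 3 of the resistant lines and to 50096 to 78504 in the sensitive lines, and on replicate 2 to 26127 to 68623 and 56443 to 61999. The 5 mesenchymal markers, of which 3 were detected and ZEB1 and FN1 were not, summed to 8803 to 35579 in resistant and 132 to 8680 in sensitive lines on replicates 1 and 3, and to 1775 to 37873 and 1930 to 7734 on replicate 2. CDH2 and SPARC were detected on replicate 2 alone, where they differed between the responses by -1.84 and 0.50. Vimentin was the only mesenchymal marker detected on replicates 1 and 3. It averaged 15.05 in MiaPaCa2 and 15.07 in Panc1 there, against 6.81 in Panc0403 and 6.29 in Panc0504. SU8686 at 13.19 was close to Panc1005 at 13.03. The 7 fibroblast markers, 5 detected, summed to 1389 to 16066 in resistant and 175 to 695 in sensitive lines on replicates 1 and 3, and to 394 to 506 and 292 to 404 on replicate 2, with FAP and PDGFRB not detected on any array. The part of these states in the members' differences was not tested. Endothelial VWF and KDR, leukocyte PTPRC and CD3E, and acinar CPA1, CELA3A and AMY2A were not detected on any array. Others of these lists were: CD68 and CD14 on all 18 arrays, CD79A on 7, PRSS1 on 5, CDH5 on 4 and PECAM1 on 3. CD14 averaged 10.16 in SU8686 and 7.0 in Panc1005 on replicates 1 and 3 (adjusted p = 5.03e-07, limma), and PRSS1, detected on 0 resistant and 5 sensitive arrays, differed between the responses by -1.74. The part of these genes in the members' differences was not tested either.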

How the data were processed

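Total RNA of 18 samples, 3 from each of 6 established cell lines, was labelled with biotin and hybridised to Illumina bead arrays, per the labels' protocols. The deposited table holds the unnormalized intensity, with a detection p-value, for 48107 probes on each array, per the file headers, and the authors' normalized log2 values, 47323 probes with 13 missing values, were an alternative; the method behind them is not stated in the sources. The intensities were background-corrected (normexp, negative controls inferred from the detection p, offset 16), quantile-normalized and logged with neqc of limma 3.58.1 in R 4.3.3. A gene was tested if a probe of it with 1 symbol (30113 probes) had detection p under 0.01 on at least 3 arrays, and its detected probe of highest mean stood for it, giving 11600 genes. Names came from the platform annotation. Response was tested on 6 line means, and pairs of lines and the difference between slides on 18 arrays, by limma with Benjamini-Hochberg adjustment over all genes. Precision of the response test rests on 3 lines a group. The response test, the pair of SU8686 and Panc1005 and the difference between slides were tested on simulated data. For the pair and the difference between slides, the simulated spread was that of replicates 1 and 3 of a line. It leaves out the offset of replicate 2, so it does not give the power of those tests with all arrays. In that simulation the response test recovered 0% of changes of 1 on the log2 scale, 50.5% of changes of 2 and 93.5% of changes of 4. Plots and promoters used Python 3.11.15. Members, lists and tests were chosen with earlier results of these data known. Genes named by rule are the members, the 2 genes most correlated with each, the 2 largest differences of each list and cell type markers; the others were named after their values were seen. Alternatives were filters, normalization, offsets, probes, blocks and leaving out replicates or lines.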

Additional observations from a re-analysis of the deposited data

Results flagged for a closer look

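The resistant minus sensitive difference of WWTR1 differed between slides by 2.35 on the log2 scale (limma adjusted p = 0.000207 over 11600 genes): it was 2.02 in MiaPaCa2 and Panc1 minus Panc0403 and Panc0504, and -0.33 in SU8686 minus Panc1005. That of DLC1 differed by -3.19 (adjusted p = 0.000449), at -4.62 and -1.43. Of all genes, 21.3% passed the same test, and the arrays of a line were its replicates, so the test compares these 6 lines. The dim DLC1 arrays give a bound only.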

How the results depend on the processing

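The response test called 0 genes in the main setting, with 2191 at an unadjusted p under 0.05. Leaving out a replicate gave 0 to 2, replicate 2 alone 22, slide as a block 3 and slide 2 alone 3, without a member among them. Leaving out SU8686 gave 2333 (WWTR1, CCN2, ANKRD1, DLC1 and AJUBA among them), leaving out Panc1005 365 (CCN2, DLC1 and AJUBA), and slides 1 and 3 alone 5418 (also WWTR1, TEAD1 and ANKRD1). Arrays with line as a random block gave 759, and with a replicate block as well 638, each with ANKRD1, DLC1 and AJUBA. The cause was not tested, though the last 2 settings and slide 2 alone count arrays. The slide block and slide 2 alone both estimate SU8686 minus Panc1005, so they rest on those lines alone. Leaving out each of the 4 other lines gave 0.

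Member pairs called are given here with the share called over all genes and pairs in brackets. They were 32 of 135 (9.94%), and 21 of 105 with detection on at least 9 arrays (10%, fewer genes tested). They were 15 without replicate 1 (1.35%), 64 without replicate 2 (24.8%) and 12 without replicate 3 (1.31%). The genes whose difference differed between slides numbered 2469, and 209 to 8452 (209, 8452 and 235 without replicates 1, 2 and 3). The replicate block gave 37 pairs (11.7%) and 3086 genes. Whether a shared replicate number pairs the samples across lines was not settled, though the arrays of replicate 2 stood apart as described above.

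Signs turned for the response difference of YAP1 (-0.26, leave-one-out -0.26 to 0.28) and LATS2 (0.31, leave-one-out -0.51 to 0.31) without replicate 2. They also turned for CCN2 (0.50) on replicate 2 alone, and for YAP1 (-0.22), WWTR1 (-0.33) and TEAD1 (-0.30) in SU8686 minus Panc1005. The slide block and slide 2 alone both give that difference, so they are not separate checks. The difference between slides turned for CCN2 at 0.07 without background correction, 0.051 with the mean of probes and 0.19 without replicate 1 or replicate 3 (leave-one-out -1.52 to 0.19), and for YAP1 (-0.11, to 0.87) and LATS2 (0.20, down to -0.29) without replicate 2. Of the members' response differences, 158 of 187 kept direction and side of the threshold, as did 75 of 88 differences between slides.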
